A study of Mus musculus with 12 samples.

Results

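The genes described here encode the contractile and cytoskeletal proteins of vascular smooth muscle and 2 surface or signalling proteins that are common markers of pericytes. The members were Acta2, Tagln, Myh11, Cnn1, Myl9, Des, Rgs5 and Mcam, taken by symbol, and all 8 were found among the 55487 genes of the count table. Of these, 7 passed the filter on low counts that left 17301 genes for testing; Cnn1 did not pass. RNA of mouse lymph nodes was sequenced in 12 libraries, 3 for each of 4 groups. T denotes mice that received B16F10 cells, a melanoma line, in the tongue, and NT denotes mice that did not. NDE denotes mice in which the nociceptive nerves reaching the tumour-draining lymph node were inhibited, and NC denotes mice with these nerves left uninhibited. The 4 groups are therefore NT NC (neither tumour nor inhibition), T NC (tumour only), NT NDE (inhibition only) and T NDE (both). The sources used here do not give the strain, age or sex of the mice, the way the nerves were inhibited or the time after inoculation. Nor do the labels say whether a library holds 1 mouse or several, although they call the replicates biologically independent.

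Smooth muscle cells and pericytes, together called mural cells, wrap the endothelium of arterioles, capillaries and venules and set vessel tone. Contraction depends on actin filaments sliding past smooth muscle myosin, whose regulatory light chain must be phosphorylated, while actin-binding proteins such as transgelin and calponin tune the filaments. Many of these genes are switched on together by serum response factor, Srf, which binds a short DNA element called the CArG box, and by its coactivators of the myocardin family. In a lymph node, fibroblastic reticular cells also contain actin and desmin filaments and can contract, so these transcripts are not restricted to vessels.

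CArG boxes were looked for in the 250 bases before the RefSeq start of each member, because the element is a known shared feature of this family. The promoter table of RefSeq (GRCm38.p6, the same assembly as mm10) held 6 of the 8 members, with no entry for Tagln and Myh11. The element was searched by its consensus, which reads the same on both strands, allowing at most 1 mismatch. Acta2 and Myl9 each held 2 matches, and the Cnn1, Des, Rgs5 and Mcam windows held none. The 4 matches are shown in capitals with 10 bases on either side, 5′ to 3′ on the strand of the gene. Distances in the list are from the RefSeq start to the first base of the match; where the GENCODE gene begins elsewhere is said after it.
Acta2, chr19:34255438-34255467, minus strand, 84 bases before the RefSeq start, 1 mismatch: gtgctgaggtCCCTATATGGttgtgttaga
Acta2, chr19:34255388-34255417, minus strand, 34 bases before the RefSeq start, 1 mismatch: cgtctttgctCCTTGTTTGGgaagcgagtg
Myl9, chr2:156775293-156775322, plus strand, 161 bases before the RefSeq start, exact: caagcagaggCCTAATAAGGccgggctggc
Myl9, chr2:156775355-156775384, plus strand, 99 bases before the RefSeq start, 1 mismatch: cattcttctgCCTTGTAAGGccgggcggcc
The gene positions printed further on are those of GENCODE M21, which starts Acta2 217 bases upstream of the RefSeq start and Myl9 44 bases upstream. Measured from the GENCODE starts, the Acta2 matches begin 133 and 183 bases downstream, inside the annotated first exon, and the Myl9 matches begin 117 and 55 bases upstream. Among all 32851 promoters of the table, 1.47% held an exact match, 18.6% held an exact match or 1 with a single mismatch, and 2.96% held at least 2 such matches. These matches are a description of the letters in the window and say nothing of binding in these nodes.

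Library totals ranged from 16862953 to 24467873 counts. Values are given as CPM, that is, counts scaled to an equal library total, with TMM normalization factors between 0.9668 and 1.013. The summed level of 14 salivary gland genes set 3 libraries apart, T NDE replicate 3 with 42270 CPM, NT NC replicate 3 with 30247 CPM and NT NC replicate 2 with 1543 CPM, against 17.2 to 67.3 CPM in the other 9. Where leaving out T NDE replicate 3, or all 3 of these libraries, moved a member's difference by over 1.5 times, the main such values are given beside it; leaving out all 3 leaves NT NC with 1 library. The labelled tissue was checked by 7 lymphocyte genes, whose summed level was 3544 to 4335 CPM in every library. In bulk RNA, fewer cells of a type and less RNA per cell cannot be told apart.

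Scaled by exonic length, the members covered a wide range of levels. The signalling gene Rgs5, a regulator that shortens G protein signals and marks pericytes, stood at 30.1 ± 2.51 CPM per kb of exon (SD, n = 12). Tagln followed at 29.4 ± 5.45 and Acta2 at 25.8 ± 5.25 CPM per kb, and the ranges of these 3 over libraries overlapped. Differences in level between genes were not tested. Myl9 (18.6 ± 3.19 CPM per kb) and Des (18.2 ± 2.03 CPM per kb) formed the next pair, also with overlapping ranges. Mcam (7.52 ± 0.92 CPM per kb) and Myh11 (5.99 ± 0.91 CPM per kb) lay lower, and Cnn1 came last at 0.109 ± 0.0922 CPM per kb. The close relatives outside the members had another order. Cnn2 and Tagln2, relatives found in many cell types, were at 208 ± 13.4 and 112 ± 7.2 CPM per kb, above every member, while Actg2, the enteric smooth muscle actin, was at 1.11 ± 0.259 CPM per kb. The skeletal and cardiac actins Acta1 and Actc1 averaged 0.0243 and 0.0223 CPM per kb. The sources used here do not say how reads shared by related genes were assigned.

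**Figure D1:**
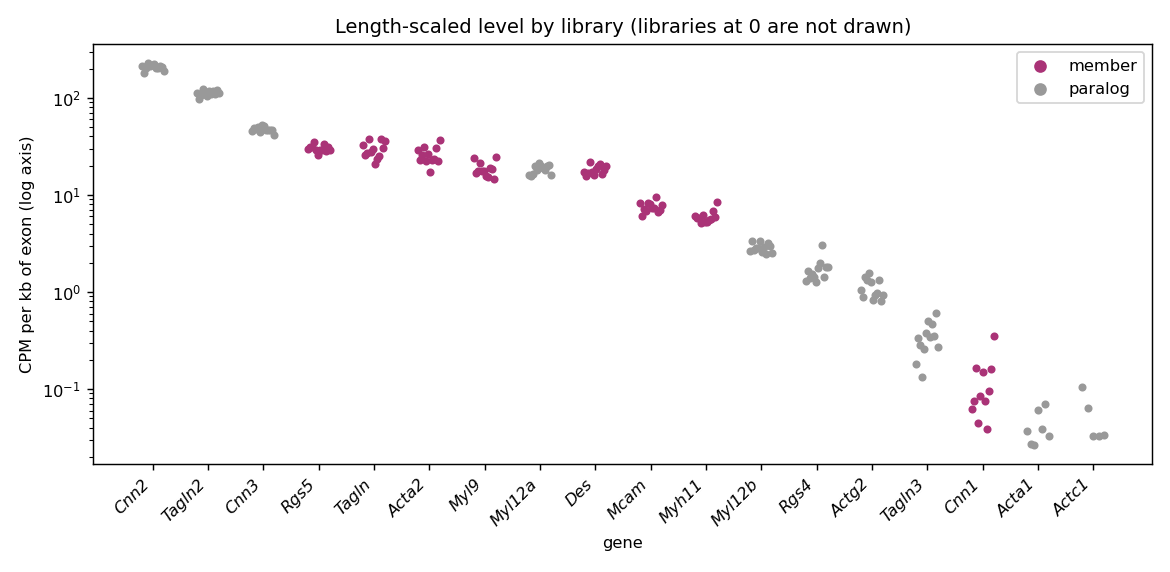
Level of each member (purple) and of its close relatives (grey) as CPM per kb of exon on a log axis, 1 point per library, with genes ordered by mean and libraries at 0 left out. Rgs5, Tagln and Acta2 overlap near 30 CPM per kb, whereas Cnn1 lies at 0.109 CPM per kb on average.

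Acta2 (ENSMUSG00000035783, chr19:34241090-34255590 on the minus strand in mm10) encodes alpha smooth muscle actin, the main thin filament protein of these cells. Its level was 63.3, 50.7 and 56.1 CPM in NT NC, 67.6, 49.2 and 57.4 CPM in T NC, then 37.7, 49.9 and 52.0 CPM in NT NDE, and 66.3, 48.9 and 81.7 CPM in T NDE, each in the order of replicates 1 to 3. NT NDE replicate 1 was the lowest library and T NDE replicate 3 the highest, 2.17-fold apart, and the 4 groups overlapped. The group means were 56.7 ± 6.33 (SD, n = 3), 58.1 ± 9.19, 46.5 ± 7.73 and 65.6 ± 16.4 CPM in the same order.

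Tagln (ENSMUSG00000032085, chr9:45929619-45936058, minus strand) encodes transgelin, an actin-binding protein of smooth muscle. It was measured at 64.4, 50.7 and 53.2 CPM in NT NC, at 74.2, 54.8 and 58.6 CPM in T NC, at 41.8, 46.5 and 50.5 CPM in NT NDE, and at 74.2, 59.8 and 71.7 CPM in T NDE. All 3 NT NDE libraries lay below all 9 others, although the highest of them (50.5 CPM) nearly touched the lowest NT NC library (50.7 CPM). Its group means were 56.1 ± 7.29 CPM in NT NC, 62.5 ± 10.3 CPM in T NC, 46.3 ± 4.34 CPM in NT NDE and 68.6 ± 7.65 CPM in T NDE. Exons of Tagln overlap those of the antisense gene Gm48529 over 1241 bp, 62.4% of the exonic length, and those of Pcsk7 over 108 bp, on the opposite strand. Gm48529 itself was counted at 4.25 to 9.87 CPM and Pcsk7 at 67.6 to 72.5 CPM. The sources used here do not give the strand setting of the counting, so reads of such overlapping partners cannot be told apart.

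Cnn1 (ENSMUSG00000001349, chr9:22099216-22109630, plus strand) encodes calponin 1, an actin-binding protein that is abundant in mature smooth muscle. It received 3, 5 and 9 counts in NT NC, 3, 5 and 7 in T NC, 4, 2 and 5 in NT NDE, and 8, 0 and 20 in T NDE. T NDE replicate 2 had no count, where a count of 0 allows up to 0.152 CPM (3 counts), and T NDE replicate 3 had the most. With 71 counts over 12 libraries the gene was not tested, and a difference between groups was not detectable at this depth. Such limits cover counting error only.

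Myh11 (ENSMUSG00000018830, chr16:14194535-14291372, minus strand) encodes the smooth muscle myosin heavy chain, the motor of the thick filament. Its level was 46.0, 43.6 and 43.6 CPM in NT NC, 38.9, 47.5 and 39.6 CPM in T NC, then 40.1, 42.2 and 43.4 CPM in NT NDE, and 51.7, 45.1 and 64.3 CPM in T NDE. The first 3 groups lay close together, with means of 44.4 ± 1.35, 42.0 ± 4.78 and 41.9 ± 1.68 CPM, and T NDE was higher and wider at 53.7 ± 9.77 CPM. T NDE replicate 3, one of the libraries with salivary transcripts, was the highest of the 12.

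Myl9 (ENSMUSG00000067818, chr2:156775420-156781658, plus strand) encodes a regulatory light chain of the same motor. Its level was 27.6, 19.4 and 20.4 CPM in NT NC, 24.9, 20.3 and 20.7 CPM in T NC, then 18.4, 17.7 and 22.1 CPM in NT NDE, and 21.7, 16.9 and 28.6 CPM in T NDE. All groups overlapped, and the T NDE group alone held both the lowest and the highest library. The means were 22.5 ± 4.46, 22.0 ± 2.54, 19.4 ± 2.33 and 22.4 ± 5.85 CPM.

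Des (ENSMUSG00000026208, chr1:75360329-75368579, plus strand) encodes desmin, the intermediate filament of muscle cells that pericytes and reticular cells also contain. It was measured at 64.0, 58.3 and 62.7 CPM in NT NC, at 81.9, 65.2 and 60.4 CPM in T NC, at 69.6, 74.7 and 78.6 CPM in NT NDE, and at 61.8, 68.0 and 75.0 CPM in T NDE. Every NT NDE library was above every NT NC library, the opposite order to Tagln in the same libraries. The means were 61.7 ± 2.94, 69.1 ± 11.3, 74.3 ± 4.51 and 68.3 ± 6.61 CPM.

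Rgs5 (ENSMUSG00000026678, chr1:169655501-169695813, plus strand) varied least, with a coefficient of variation of 8.33% over the 12 libraries against 20.3% for Acta2. Its level was 134, 141 and 141 CPM in NT NC, 161, 131 and 118 CPM in T NC, then 131, 131 and 152 CPM in NT NDE, and 128, 142 and 132 CPM in T NDE. The T NC group alone spanned the whole range of the other groups. Group means lay between 134 ± 7.42 and 139 ± 3.8 CPM.

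Mcam (ENSMUSG00000032135, chr9:44134469-44142727, plus strand) encodes an adhesion molecule of mural and endothelial cells that melanoma cells can also carry. Its level was 27.5, 20.5 and 23.8 CPM in NT NC, 22.7, 27.6 and 27.2 CPM in T NC, then 24.7, 24.6 and 32.0 CPM in NT NDE, and 22.2, 23.5 and 26.2 CPM in T NDE. All groups overlapped, with means of 23.9 ± 3.48, 25.8 ± 2.7, 27.1 ± 4.25 and 24 ± 2.03 CPM. The melanocyte genes Mlana, Tyrp1 and Dct were at 0 in 7, 9 and 9 of the 12 libraries. The summed level of the 6 melanocyte genes was 8.55 to 12.1 CPM with overlapping groups, and Mitf alone averaged 8.56 CPM. Tyrp1 averaged 0 in NT NC and NT NDE, 0.217 CPM in T NC and 0.0837 CPM in T NDE. The highest Tyrp1 value was 0.651 CPM in T NC replicate 3. Mlana, Pmel and Dct also had higher means with a tumour at either nerve status. Mlana was at 0.0789 against 0.0731 CPM with nerves uninhibited and 0.0352 against 0 CPM with nerves inhibited. For Pmel these were 0.759 against 0.588 and 0.808 against 0.612 CPM, and for Dct 0.0592 against 0 and 0.0845 against 0.0175 CPM. Tyr was lower with a tumour when nerves were uninhibited (0.403 against 0.819 CPM) and higher when inhibited (0.567 against 0.388 CPM). Mitf was lower in both (8.09 against 8.75 and 8.62 against 8.8 CPM). Whether tumour cells were present in the nodes was not tested.

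**Figure D2:**
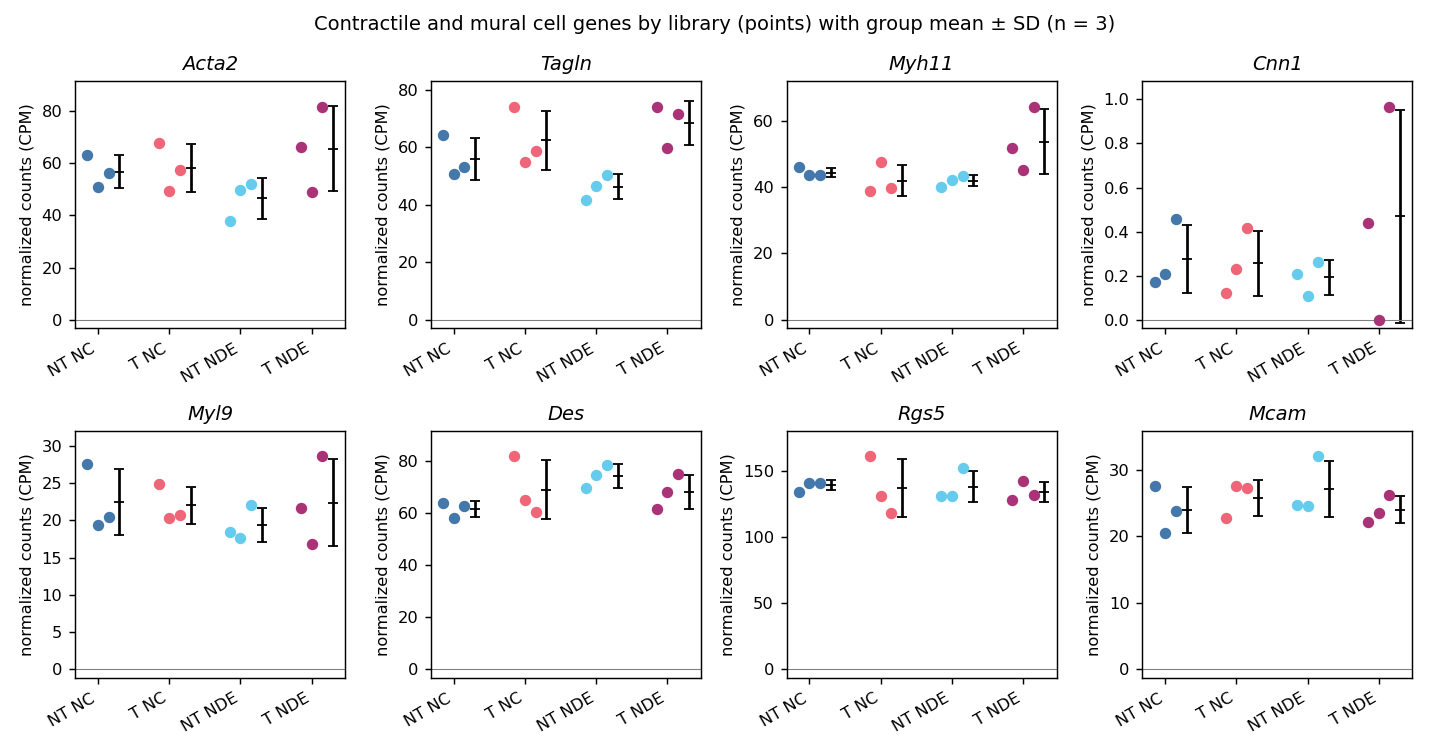
Normalized counts (CPM, y axis from 0) of the 8 members in each library (points, 3 per group) with the group mean and SD beside them. Tagln in the 3 NT NDE libraries lies between 41.8 and 50.5 CPM, below the other 9 libraries, whereas Des in the same libraries lies between 69.6 and 78.6 CPM, above the NT NC libraries.

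The first comparison asked what nerve inhibition did in nodes of mice without a tumour (NT NDE against NT NC). No member passed the test, edgeR's quasi-likelihood test with Benjamini-Hochberg adjustment over all 17301 genes at 0.05. Des was 0.27 higher on the log2 scale (SE 0.102, 95% interval 0.05 to 0.49, edgeR adjusted p = 0.398). Tagln differed by -0.28 (SE 0.128, adjusted p = 0.482) and Acta2 by -0.28 (interval -0.72 to 0.15, adjusted p = 0.66). Myl9 (-0.21), Myh11 (-0.08), Rgs5 (-0.01) and Mcam (0.18) had adjusted p-values of 0.665 to 0.989. Without the 3 libraries with salivary transcripts, 2 of which belong to NT NC, the differences were -0.48 for Tagln, -0.44 for Acta2 and -0.51 for Myl9, and none passed the test. With 1 library left out they were as small as -0.17 for Tagln and -0.03 for Myl9 (both without NT NC replicate 1) and -0.15 for Acta2 (without NT NDE replicate 1). The groups did not overlap for 3 members, Des (higher) and Tagln and Myh11 (lower). Among all genes, 9.71% were higher and 9.18% lower without overlap, 10.4% had an unadjusted p under 0.05, and the adjusted test called 0%. DESeq2 called 0.947% of its genes and no member. The median of the 7 tested members was -0.08, beside 0.00 for all genes tested.

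The second comparison asked how tumour-bearing mice differed from tumour-free mice when the nerves were inhibited (T NDE against NT NDE). The contractile genes had higher means in T NDE, and none passed edgeR's adjusted test. Tagln was 1.48-fold higher (interval 1.22 to 1.8; log2 0.57, SE 0.128, edgeR adjusted p = 0.9998), and the groups did not overlap, higher in 3 of 3 libraries. DESeq2 gave the same log2 difference of 0.57 with an adjusted p of 0.0128, the only member that either tool called in any comparison. Over all genes, edgeR called 0.00578% here, which was 1 gene, the predicted gene Gm4617 (log2 -0.98, adjusted p = 0.0133, named after its value was seen), and DESeq2 called 0.111%, or 17 genes. In edgeR, the Tagln difference stayed between 0.50 and 0.66 when any 1 library was left out, with a smallest adjusted p of 0.377.

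Myh11 was also higher without overlap in T NDE than in NT NDE (log2 0.36, SE 0.11, interval 0.12 to 0.60, edgeR adjusted p = 0.9998). Without T NDE replicate 3 this difference was 0.21. Acta2 was 0.50 higher (SE 0.195, interval 0.06 to 0.93, edgeR adjusted p = 0.9998), its groups overlapped, and the difference was 0.31 without that library. Myl9 differed by 0.21 (interval -0.19 to 0.61) and by -0.00 without that library. The remaining members leaned the other way, with Mcam at -0.18, Des at -0.12 (-0.19 without T NDE replicate 3) and Rgs5 at -0.04. Thus 2 of 7 members were higher without overlap, where 4.1% of all genes were higher and 4.33% lower, and 3 of 7 had an unadjusted p under 0.05, where 3.7% of all genes did. The median over the members was 0.21, beside 0.00 for all genes tested. Without T NDE replicate 3 that median was -0.00, and without all 3 libraries with salivary transcripts it was 0.00.

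With the nerves left uninhibited, the tumour-bearing mice were compared with tumour-free mice (T NC against NT NC). No member differed beyond the spread between replicates, and all 7 overlapped. The log2 differences ran from -0.08 for Myh11 to 0.17 for Des, Tagln was at 0.16 (SE 0.127, interval -0.12 to 0.44), and the edgeR adjusted p-values ran from 0.704 to 0.984. In this comparison 7.78% of all genes were higher and 7.23% lower without overlap, 7.8% had an unadjusted p under 0.05, edgeR called 0% and DESeq2 called 0.236%. Without the 3 libraries with salivary transcripts, Acta2 differed by -0.11, Tagln by -0.03 and Myl9 by -0.31, beside -0.03 with them. Without T NC replicate 1, Des differed by 0.03 and Tagln by 0.02.

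Nerve inhibition in tumour-bearing mice (T NDE against T NC) gave a difference of 0.35 for Myh11 (SE 0.11, interval 0.12 to 0.59, edgeR adjusted p = 0.706, DESeq2 adjusted p = 0.325). The groups overlapped, since T NC replicate 2 (47.5 CPM) lay above T NDE replicate 2 (45.1 CPM). Without T NDE replicate 3 the Myh11 difference was 0.20 with an adjusted p of 0.829. The other members lay between -0.11 for Mcam and 0.18 for Acta2. Without that library Acta2 differed by -0.02 and Myl9 by -0.19, beside 0.03 for Myl9 with it. Among all genes, 5.83% had an unadjusted p under 0.05, 4.55% were higher and 4.6% lower without overlap, edgeR called 0% and DESeq2 called 0.255%.

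The interaction, that is, the effect of nerve inhibition with a tumour minus the effect without one, was tested directly. It was positive for the 4 contractile genes and negative for the other members, and none passed the test. The values were 0.46 for Acta2 (SE 0.274, adjusted p = 0.768), 0.41 for Tagln (SE 0.18, adjusted p = 0.698), 0.44 for Myh11 (SE 0.156, adjusted p = 0.652) and 0.23 for Myl9, all by edgeR. Des was at -0.29 (SE 0.144, edgeR adjusted p = 0.725), Mcam at -0.29 (edgeR adjusted p = 0.775) and Rgs5 at -0.03. An unadjusted p under 0.05 was found for 2 members (Tagln and Myh11) and for 7.11% of all genes, while edgeR called 0% and DESeq2 0.249%. Without T NDE replicate 3 the interaction was 0.27 for Acta2, 0.37 for Tagln, 0.29 for Myh11 and 0.02 for Myl9. The median over the members was then 0.02 instead of 0.23. Without all 3 libraries with salivary transcripts, the same 4 genes were at 0.43, 0.57, 0.34 and 0.32. In that setting Des was at -0.31, Mcam at -0.16 and Rgs5 at -0.07, and the median was 0.32. Des was at -0.15 without T NC replicate 1, and Mcam at -0.16 without NT NDE replicate 3.

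**Figure D3:**
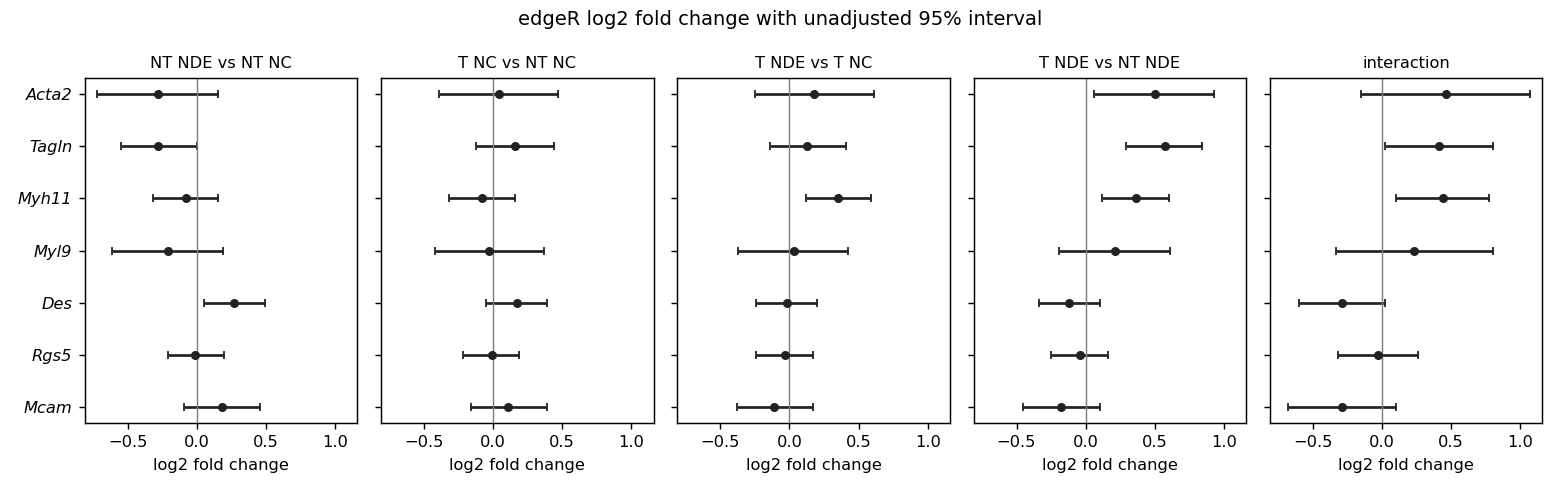
The edgeR log2 fold change of the 7 tested members (points) with unadjusted 95% intervals (bars) in 4 comparisons of groups and in the interaction; the vertical line marks 0. In T NDE against NT NDE, Tagln at 0.57, Acta2 at 0.50 and Myh11 at 0.36 lie to the right of 0 with their intervals, and Des, Rgs5 and Mcam have intervals that include 0.

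Averaged over nerve status, tumour-bearing mice had 0.36 more Tagln on the log2 scale (SE 0.0902, interval 0.17 to 0.56, edgeR adjusted p = 0.992; DESeq2 adjusted p = 0.106). Acta2 was at 0.27 and Myh11 at 0.14, and Rgs5 was at -0.03, with a fold interval of 0.886 to 1.08. Without T NDE replicate 3, Acta2 was at 0.18 and Myh11 at 0.07, and without all 3 libraries with salivary transcripts they were at 0.10 and 0.05 and Tagln at 0.26. Here 4.5% of all genes had an unadjusted p under 0.05, edgeR called 0% and DESeq2 called 0.0348%, no member among them. Averaged over tumour status, nerve inhibition gave differences between -0.09 for Myl9 and 0.13 for Des and Myh11, with edgeR adjusted p-values of 0.633 to 0.964; without T NDE replicate 3, Myl9 was at -0.20 and Myh11 at 0.06, and without all 3 libraries with salivary transcripts Myl9 was at -0.35, Acta2 at -0.23, Tagln at -0.19, Des at 0.06 and Myh11 at 0.04. In that average 9.2% of all genes had an unadjusted p under 0.05, 0.0983% were called by edgeR and 0.981% by DESeq2, again with no member. These comparisons share libraries and are not independent of each other.

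Other genes of the contractile apparatus were followed through a list of 22, of which 20 were tested, with Pln and Susd5 left out by the filter on low counts. None passed edgeR's or DESeq2's test in any of the 7 comparisons, and the medians lay between 0.01 and 0.05. The 3 with the highest mean level were Flna (filamin A, an actin crosslinker, 1086 CPM), Csrp1 (an actin-associated LIM protein, 151 CPM) and Tpm1 (a tropomyosin of the thin filament, 111 CPM). In T NDE against NT NDE, where Tagln differed by 0.57, Flna differed by -0.03 (SE 0.058), Csrp1 by 0.01 (SE 0.0826) and Tpm1 by 0.07 (SE 0.0672). These SEs were smaller than those of 0.128 for Tagln and 0.195 for Acta2.

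The list of 16 pericyte and mural cell genes, 15 of them tested, had a median of the same sign as Des and Mcam in NT NDE against NT NC and in T NDE against NT NDE. Rgs5, also a pericyte marker, differed by -0.01 in the former and by -0.04 in the latter. In NT NDE against NT NC, 14 of the 15 were higher and 1 lower, with a median of 0.13. In T NDE against NT NDE, 1 was higher and 14 lower, with a median of -0.12. Of all 17301 genes tested, 8847 were higher in the former and 8595 lower in the latter. Other lists leaned the same way: 10 of 13 fibroblastic reticular cell genes were higher, then 11 lower. For blood endothelial genes these were 10 and 8 of 12, and for lymphatic endothelial genes 5 and 5 of 6. No gene of the pericyte list passed either test, and both comparisons use the NT NDE libraries, so these counts are not independent. The 3 most abundant were Abcc9 (a subunit of a potassium channel of mural cells, 119 CPM), Ebf1 (a transcription factor of B cells and mural cells, 101 CPM) and Notch3 (the Notch receptor of mural cells, 59 CPM). Notch3 averaged 59.3 CPM in NT NC, 55.9 in T NC, 64.8 in NT NDE and 56.1 in T NDE, and differed by -0.21 in T NDE against NT NDE (SE 0.132, edgeR adjusted p = 0.9998).

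Among 10 transcription factors of smooth muscle, 8 were tested and none passed. Srf, the factor that binds CArG boxes, averaged 93.3 CPM in NT NC, 106 in T NC, 100 in NT NDE and 100 in T NDE. Its largest difference was 0.19 in T NC against NT NC (SE 0.0798, edgeR adjusted p = 0.621), and it was at -0.00 in T NDE against NT NDE. Its coactivator Mkl1, also named Mrtfa, was at 148 CPM, with differences from -0.01 to 0.09 in the 4 comparisons of groups. Mef2c, a factor of muscle and of B cells, was at 306 CPM. Myocd, the myocardin of smooth muscle, averaged 0.0846 CPM, was at 0 in 3 libraries and was not tested.

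Markers of other cells that hold the same transcripts were measured beside these values. Salivary gland tissue includes contractile myoepithelial cells, and T NDE replicate 3, the highest library for Acta2, Myh11, Myl9 and Cnn1, also had the highest level of the myoepithelial genes Krt5 (0.822 CPM) and Oxtr (0.629 CPM), while NT NC replicate 3 had the highest Krt14 (1.62 CPM). The 8 myoepithelial and basal genes summed to 31.0, 37.7 and 46.5 CPM in T NDE, 26.4 to 37.1 CPM in NT NC, 35.2 to 38.6 CPM in NT NDE and 31.1 to 37.9 CPM in T NC; Krt14 was at 0 in 6 libraries and Krt5 in 7. Of this list 3 genes were tested, with a median of 0.29 in T NDE against NT NDE. The 8 adipocyte genes were also highest in T NDE replicate 3, at 92.7 CPM, next in T NC replicate 3 at 45.8 CPM, and at 11.8 to 29.8 CPM elsewhere; their median was 1.36 in T NDE against NT NDE and 0.96 in NT NDE against NT NC. The part of these cells in the differences above was not tested. The Tagln difference in T NDE against NT NDE was 0.54 without T NDE replicate 3, beside 0.57 with it.

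The skeletal muscle genes Acta1 and Myh4 were near 0. Acta1 reached at most 0.107 CPM and was at 0 in 5 libraries, and Myh4 was at 0 in 9 libraries. Of the 16 skeletal muscle genes, 6 passed the filter on low counts, with means from 1.38 CPM (Atp2a1) to 5.09 CPM (Mybpc2). None of the 6 passed edgeR's test in any comparison. DESeq2 called 1 of them in T NC against NT NC and 1 in the tumour difference averaged over nerve status. All 16 skeletal muscle genes together summed to 17.6 to 24.5 CPM. Fibroblastic reticular cell genes (13) summed to 1085 to 1184 CPM in NT NC, 1141 to 1604 CPM in T NC, 1152 to 1342 CPM in NT NDE and 912 to 1332 CPM in T NDE, with medians of 0.11 in NT NDE against NT NC and -0.17 in T NDE against NT NDE. The 12 blood endothelial genes summed to 1091 to 1603 CPM, with medians of 0.09 and -0.01 in the same comparisons, and the 6 lymphatic endothelial genes to 155 to 311 CPM, with medians of 0.17 and -0.19.

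Across the 12 libraries the members did not vary as 1 block. Acta2 and Tagln varied together (Pearson's r = 0.88, permutation p = 0.00012, adjusted p = 0.00756 over 63 relations; Spearman's rho = 0.76, permutation p = 0.00652, adjusted p = 0.103). Without the libraries farthest from the median of Acta2, NT NDE replicate 1 and T NDE replicate 3, r was 0.84, and after removing group means it was 0.85. Acta2 and Myl9 had r = 0.82 (permutation p = 0.00099, adjusted p = 0.0235) and rho = 0.88 (permutation p = 0.00036, adjusted p = 0.0227), with r = 0.78 without the same 2 libraries and 0.85 within groups. These were the only 2 of 21 pairs of members with an adjusted p for r under 0.05. Acta2 and Myh11 had r = 0.60 (permutation p = 0.0458, adjusted p = 0.25) and rho = 0.19 (permutation p = 0.561), and the relation rested on the same 2 libraries, without which r was 0.00.

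Over all 12 libraries, Des stood with other lists. Its relation to Acta2 had r = 0.15 (permutation p = 0.652, adjusted p = 0.856) and that to Tagln r = 0.08 (permutation p = 0.812, adjusted p = 0.948). After removing group means these were 0.60 and 0.63; the group means of Des and Tagln had opposite orders in NT NDE and NT NC. With the mean of the pericyte list Des had r = 0.82 (permutation p = 0.00135, adjusted p = 0.0235; rho = 0.80, permutation p = 0.00251, adjusted p = 0.0791), and with the fibroblastic reticular cell list r = 0.81 (permutation p = 0.00149, adjusted p = 0.0235; rho = 0.71, permutation p = 0.0115, adjusted p = 0.145). Without NT NDE replicate 3 and T NC replicate 1, the farthest from the median of Des, these were 0.70 and 0.65, and within groups they were 0.86 and 0.88. Within groups, r with the same 2 lists was 0.70 and 0.72 for Acta2, 0.64 and 0.65 for Tagln and 0.79 and 0.62 for Myl9. For Rgs5 it was 0.50 and 0.54, for Mcam 0.43 and 0.08 and for Myh11 0.38 and 0.25. Such values within groups were therefore not particular to Des. Des and Rgs5 had r = 0.58 (permutation p = 0.0477, adjusted p = 0.25; rho = 0.43, permutation p = 0.161), which was 0.04 without the same 2 libraries. Myl9 varied with the other contractile genes (r = 0.78, permutation p = 0.00238, adjusted p = 0.03; rho = 0.76, permutation p = 0.00644, adjusted p = 0.103), at 0.53 without NT NC replicate 1 and T NDE replicate 3. All values of a library share its depth and its cell composition.

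**Figure D4:**
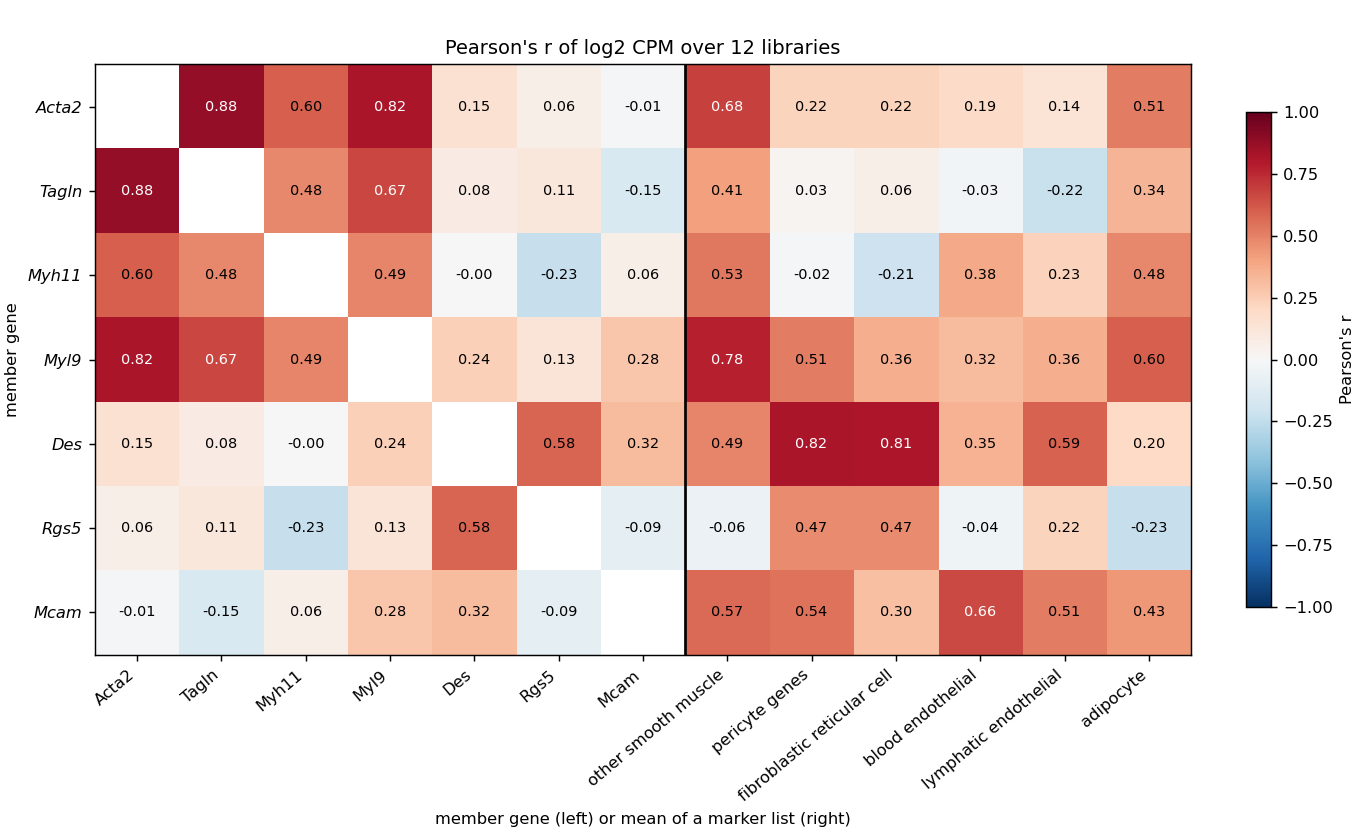
Pearson's r of log2 CPM over 12 libraries between each of the 7 tested members (rows) and the other members (left of the black line) or the mean of a list of marker genes (right of it), colored from -1 (blue) to 1 (red). Acta2, Tagln and Myl9 have values of 0.67 to 0.88 among themselves, whereas Des has 0.82 with the pericyte list, 0.81 with the fibroblastic reticular cell list and 0.08 with Tagln.

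**Figure D5:**
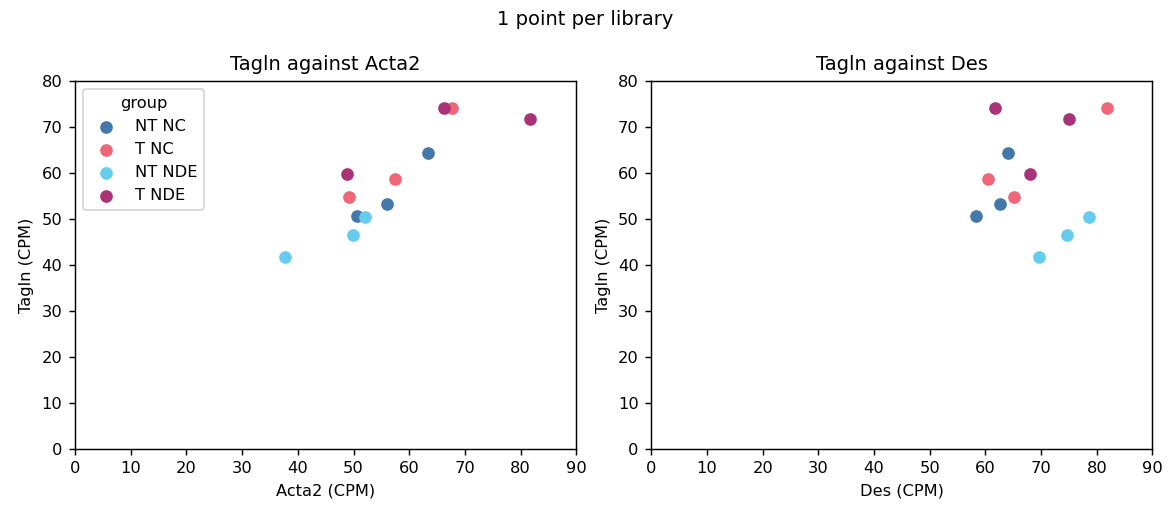
Tagln against Acta2 (left) and against Des (right), both in CPM, 1 point per library, colored by group. On the left the 12 libraries follow a single band from NT NDE replicate 1 (37.7 and 41.8 CPM) upward, and on the right the 3 NT NDE libraries lie below the other 9 at high Des.

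The genes whose log2 CPM was most like the mean of the standardised members over the 12 libraries, among 13741 named genes searched, were Efna1 (r = 0.91, rho = 0.93), Dstn (r = 0.86), Senp8 (r = 0.85), Tpm2 (r = 0.84) and Rhoj (r = 0.84). Dstn encodes destrin, an actin-depolymerizing factor, and Tpm2 a tropomyosin that was also on the contractile list. For single members the most alike were Oscp1 for Acta2 (0.89), Thtpa for Tagln (0.89), Slc35a1 for Myh11 (0.86), Slc48a1 for Myl9 (0.88), Hadha for Des (0.94), Hnrnpk for Rgs5 (0.91) and Hey1 for Mcam (0.88). Hey1 encodes a target of Notch signalling. These are the highest of many values over few libraries and carry no test.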

How the data were processed

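The 12 libraries are mRNA-seq of mouse lymph node, 3 in each of 4 groups, prepared by a standard Illumina protocol from Trizol-extracted RNA, per the labels. The authors deposited 1 table of raw read counts for 55487 genes, which are whole numbers without normalization. HISAT2 2.0 and the mm10 build were used, per the submitters' processing notes. The sources used here do not name the counter, the annotation, the strand setting or the handling of reads with several matches. Symbols were joined to the Ensembl identifiers, and IDs without a symbol held at most 0.05479% of a library's counts. Gene positions and exonic lengths come from GENCODE M21, and promoter sequences from RefSeq.

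Counts were fitted in R 4.3.3 with edgeR 4.0.16 (TMM, filterByExpr at its minimum count of 10 and total of 15, robust quasi-likelihood fit with 1 mean per group over all 12 libraries, two-sided), and p-values were adjusted by Benjamini-Hochberg over all 17301 genes tested at a threshold of 0.05. Intervals of 95% are unadjusted. The p-values measure the spread between the labelled replicates. The fit was also run on simulated counts for T NC against NT NC, as a check of the fitting step. The outcome is not given here, and it does not show which member differences could be found. An exact permutation of 3 against 3 libraries cannot go below 0.1, so single genes were tested in the fit across all genes only. Correlations used log2 CPM with a prior count of 2 and permutation tests of 100000 resamples, two-sided, with adjustment over 63 relations.

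Alternatives were DESeq2 1.42.0, its size factors in edgeR, no filter on counts, the replicate number as a block, leaving out the 3 libraries with salivary transcripts, and leaving out each library. The members and lists were chosen with earlier results of these data known. Named were all 8 members, from the contractile, pericyte and transcription factor lists the 3 most abundant tested genes where none passed, the closest relatives of the members, and the genes of most similar pattern. Ratios between members, single markers of other cells, and the list genes Rgs4, Synm and Foxc1 in the closing section were chosen after their values were seen.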

Additional observations from a re-analysis of the deposited data

How the results depend on the processing

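Of 833 values of the 7 tested members (49 results under 17 alternatives), 780 kept their direction and their side of the threshold, 52 changed sign and 1 passed the threshold, Tagln in T NDE against NT NDE under DESeq2 (0.57, adjusted p = 0.0128); the cause was not tested. The changes of sign fell in 21 results, none larger than 0.21 in size. In the order tumour with nerves intact (T NC against NT NC), inhibition with a tumour (T NDE against T NC), inhibition without one (NT NDE against NT NC), tumour with nerves inhibited (T NDE against NT NDE), interaction, nerve average and tumour average, edgeR called 0, 0, 0, 1, 0, 17 and 0 genes. DESeq2 called 40, 44, 138, 17, 43, 130 and 6. Without the filter on counts edgeR called 4, 12, 43, 1, 1, 41 and 2, and without the 3 libraries with salivary transcripts 7, 1, 33, 28, 3, 49 and 66, no member among them. With any 1 library left out the counts ran from 0 to 3, 0 to 1, 0 to 7, 0 to 4, 0 to 2, 0 to 30 and 0 to 22 (30 without T NDE replicate 1, 22 without T NDE replicate 3).

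With the replicate number as a block, edgeR called 3 genes in NT NDE against NT NC, 3 in T NDE against NT NDE, 1 in the interaction and 1 in the nerve average, and no member's call changed; Tagln in T NDE against NT NDE was 0.56 (adjusted p = 0.732). The labels do not say that the numbers pair the libraries. Deviations of 18 same-numbered pairs correlated between -0.133 and 0.517, with 3 over 0.1. Those of 36 other pairs correlated between -0.455 and 0.342, with 4 over 0.1. The value of 0.517 was for NT NC replicate 3 with T NDE replicate 3, both with salivary transcripts. Such correlations cannot settle whether a number marks a shared litter, day or batch.

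The median over the members ranged, with 1 library left out, from -0.03 to 0.15, -0.04 to 0.19, -0.11 to -0.03, -0.00 to 0.38, 0.02 to 0.40, -0.06 to 0.03 and -0.01 to 0.18 in the same order, and in T NDE against NT NDE it was 0.00 without the 3 libraries with salivary transcripts. The interaction median was 0.02 without T NDE replicate 3 and 0.06 without NT NC replicate 1. It was 0.32 without the 3 libraries with salivary transcripts.

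Changes of sign without the 3 libraries with salivary transcripts, where NT NC has 1 library assumed to vary like the rest, were as follows. In T NC against NT NC, Acta2 was -0.11, Tagln -0.03, Rgs5 0.04 and Mcam -0.08 (Rgs5 was also 0.00 without the filter). In T NDE against T NC, Acta2 was -0.01 and Myl9 -0.19. In NT NDE against NT NC, Rgs5 was 0.04 and Mcam -0.02. In the nerve average, Rgs5 was 0.01 and Mcam -0.10, and in the tumour average Des was -0.03, Myl9 -0.15 and Rgs5 0.01. With 1 library left out, values crossing 0 ranged as follows. In T NC against NT NC, Acta2 ran from -0.09 to 0.15, Myl9 from -0.13 to 0.15 and Rgs5 from -0.15 to 0.09. In T NDE against T NC, Acta2 ran from -0.02 to 0.35, Des from -0.11 to 0.12, Myl9 from -0.19 to 0.19 and Rgs5 from -0.14 to 0.10. In NT NDE against NT NC, Rgs5 ran from -0.08 to 0.03. In T NDE against NT NDE, Myl9 ran from -0.00 to 0.38 and Rgs5 from -0.09 to 0.03, and in the interaction Rgs5 ran from -0.13 to 0.11. In the nerve average, Acta2 ran from -0.15 to 0.03, Rgs5 from -0.07 to 0.05 and Mcam from -0.03 to 0.09. In the tumour average, Des ran from -0.05 to 0.07, Myl9 from -0.01 to 0.18, Rgs5 from -0.10 to 0.03 and Mcam from -0.08 to 0.04. Depth limits Cnn1, with 71 counts in all, and 3 libraries a group limit the rest.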

Other observations

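Ratios within a library set the contractile genes against desmin without any scaling between libraries. The ratio of Acta2 to Des was 0.541, 0.668 and 0.661 in NT NDE and 0.719 to 1.09 in the other 9 libraries. The ratio of Tagln to Des was 0.601, 0.622 and 0.642 in NT NDE and 0.841 to 1.2 in the other 9, so both ratios separated NT NDE from every other library. The ratio of Tagln to Acta2 did not, at 0.932 to 1.11 in NT NDE and 0.877 to 1.22 elsewhere. The ratio of Rgs5 to Des was 2.1 to 2.42 in NT NC, 1.96 to 2.02 in T NC, 1.76 to 1.93 in NT NDE and 1.76 to 2.09 in T NDE, so that NT NDE overlapped T NDE. These ratios were chosen after the values were seen and were not tested.

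Rgs4, Synm and Foxc1 were picked from 11 differences on the contractile, pericyte and transcription factor lists with an unadjusted p under 0.05, after their values were seen. Rgs4, a relative of Rgs5 on the pericyte list, differed by 0.65 in NT NDE against NT NC (SE 0.209, edgeR adjusted p = 0.321), whereas Rgs5 differed by -0.01. The level of Rgs4 was 5.45, 6.22 and 9.51 CPM in NT NDE and 4.05, 5.08 and 4.34 CPM in NT NC, highest in NT NDE replicate 3. Synm, an intermediate filament protein that pairs with desmin, differed by -0.43 in T NDE against NT NDE (SE 0.177, edgeR adjusted p = 0.9998). Foxc1, a transcription factor on the smooth muscle list, had an interaction of 3.28 (SE 1.32, edgeR adjusted p = 0.698). It reached 14.6 CPM in T NDE replicate 3, a library with salivary transcripts, against a mean of 3.19 CPM over the 12 libraries. Its means were 3.77 CPM in NT NC and 5.96 CPM in T NDE, the groups that hold the libraries with salivary transcripts. In T NC and NT NDE they were 1.52 and 1.53 CPM. The part of salivary tissue in this difference was not tested.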
